A study of Mus musculus with 30 samples.

Results

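Retnlg, Wfdc17, Hp, Slpi, Anxa1, Mgst1, G0s2 and Trem3 are 8 genes that are used or secreted by neutrophils, and they were followed here across 8 organs of mice with collagen-induced arthritis (CIA) and of healthy mice. They are 8 of the 23013 gene rows of the deposited single-cell table, and they were chosen from earlier results on these same data for their levels in blood, so their blood values below are a description and carry no test. They had been named mature neutrophil genes raised in blood, and the data go with that name only in part. Slpi and G0s2 overlapped between the blood of CIA and of healthy mice. The barcodes rich in neutrophil markers carried 71.9% of the Retnlg units in the blood of CIA mouse S2 but 37.7% of Wfdc17, 40.6% of Hp and 26.4% of Mgst1, whereas in S7 they carried between 61.4% and 78.1% of these 4 genes. The blood of S6 had 6 of the 8 genes above the healthy range without any such barcode.

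All mice were male DBA1/J, an inbred strain that develops arthritis after immunisation with collagen, aged 8 to 12 weeks. The CIA mice received 100 µg of bovine type II collagen in complete Freund's adjuvant and a booster in incomplete adjuvant on day 20. The controls received buffer without collagen or adjuvant, so collagen and adjuvant cannot be told apart as sources of a difference. The arthritis score was 0 in the healthy mice (H3, H4, H6, H7), 8 in CIA mice S1 and S2, 3 in S7 and 3 to 4 in S6. Blood came from H3, H4, H6 and H7 and from S2, S6 and S7, and lymph node from the same 4 healthy mice and from S1, S2 and S7. Spleen, thymus, muscle, lung and skin came from healthy mouse H6 and CIA mouse S1, and joint from H3 and S1, so these 6 organs had 1 mouse in each state and no test. Blood was prepared as mononuclear cells on a density gradient, a step that removes most neutrophils, and the knee joint was minced and digested whole. Per the study's methods, red cells of blood and organs were removed with a lysis buffer.

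Neutrophils are made in bone marrow, where precursors first fill primary granules, then secondary granules, and then switch on the receptors and small calcium-binding proteins of the circulating cell. Retnlg (resistin-like gamma) encodes a secreted peptide of myeloid cells. Wfdc17 and Slpi belong to the family of WAP-domain proteins, and Slpi inhibits neutrophil elastase and cathepsin G. Hp encodes haptoglobin, which binds free haemoglobin and is made by liver and by maturing neutrophils. Anxa1 encodes annexin A1, a ligand of formyl peptide receptors that limits neutrophil entry into tissue. Mgst1 is a membrane glutathione transferase, G0s2 an inhibitor of the fat-splitting lipase Pnpla2, and Trem3 a myeloid surface receptor that signals through the adaptor Tyrobp.

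The genes lie on 8 different chromosomes of the mouse assembly GRCm38.p6. The RefSeq promoter table used here has an entry for 6 of them, 7 entries in all, each from 250 bases before to 50 bases after the start. Those of the 4 genes that stood higher in every CIA blood than in any healthy blood and that have an entry are shown. Capitals mark letters of the C/EBP motif TTGCNNAA, the PU.1 motif GAGGAAG or the TATA motif TATAAA on either strand. C/EBP and PU.1 are transcription factors of myeloid cells.
Retnlg promoter, chr16:48872358-48872657, plus strand: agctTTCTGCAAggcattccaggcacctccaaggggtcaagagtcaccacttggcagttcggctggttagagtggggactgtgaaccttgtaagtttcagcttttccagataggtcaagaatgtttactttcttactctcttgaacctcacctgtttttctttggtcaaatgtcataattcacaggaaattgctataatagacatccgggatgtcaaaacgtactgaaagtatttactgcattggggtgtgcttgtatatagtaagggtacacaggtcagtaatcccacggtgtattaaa
Wfdc17 promoter, chr11:83703806-83704105, plus strand: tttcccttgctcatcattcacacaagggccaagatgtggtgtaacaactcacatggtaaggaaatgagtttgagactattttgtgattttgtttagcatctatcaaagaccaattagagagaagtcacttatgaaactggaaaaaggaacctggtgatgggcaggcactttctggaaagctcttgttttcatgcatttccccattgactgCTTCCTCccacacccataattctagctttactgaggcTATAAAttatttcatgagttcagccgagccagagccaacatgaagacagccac
Anxa1 promoter, chr19:20390622-20390921, minus strand: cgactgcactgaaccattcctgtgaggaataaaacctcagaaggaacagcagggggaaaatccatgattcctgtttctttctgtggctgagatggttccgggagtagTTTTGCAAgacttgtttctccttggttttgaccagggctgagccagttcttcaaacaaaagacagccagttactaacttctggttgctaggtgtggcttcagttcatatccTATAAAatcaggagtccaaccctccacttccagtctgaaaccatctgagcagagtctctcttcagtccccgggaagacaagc
Mgst1 promoter, first of its 2 entries, chr6:138140277-138140576, plus strand: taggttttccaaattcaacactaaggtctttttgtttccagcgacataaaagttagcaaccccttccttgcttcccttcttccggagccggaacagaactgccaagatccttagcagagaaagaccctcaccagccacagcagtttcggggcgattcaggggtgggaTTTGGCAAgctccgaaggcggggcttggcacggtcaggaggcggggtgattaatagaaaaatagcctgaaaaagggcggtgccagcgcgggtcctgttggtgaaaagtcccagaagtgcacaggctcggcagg
The C/EBP letters occurred in 4 of the 7 entries (Retnlg, Slpi, Anxa1 and the first of Mgst1), against 10.8% of all 32851 promoters in the table. The PU.1 letters occurred in 2 entries (Wfdc17 and the second of Mgst1), against 13.6% of all promoters, and the TATA letters in 2 (Wfdc17 and Anxa1), against 13.6%. No match overlapped a match of another motif in the 4 printed promoters. A match is a run of letters and not a shown binding site. Slpi (chromosome 2, 164354070 to 164356507) overlaps the small RNA gene Mir7678, and Trem3 (chromosome 17, 48247677 to 48258848) overlaps the predicted genes Gm52307 and Gm52308, so reads there could be split between them.

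The table holds 8282 cell barcodes in 30 libraries, between 27 and 934 barcodes and between 217494 and 7886790 units per library. A unit is a transcript count after smoothing over neighbouring cells, so neighbouring barcodes share values and only 4590 of the 8282 profiles are distinct. Adding the libraries that share a mouse and an organ gave 26 samples, whose values were scaled to units per 1000000 units of the sample (UPM). The blood of H3 had 27 barcodes and 7 distinct profiles, the smallest library, and 13 barcode sequences occurred in more than 1 library. In 19 libraries the rarest genes are mostly missing, so a 0 is written as listed at 0 and not as absence. The library names carry the suffix CIA or 2CIA whatever the state of the mouse, and the 3 CIA bloods all carry 2CIA, as do H3 and a part of H4, while H6 and H7 carry CIA. In spleen, thymus, muscle, lung and skin the suffix and the state of the mouse cannot be told apart.

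The blood of CIA mice was the setting in which the 8 genes were noticed. In healthy blood Retnlg was listed at 0 in H3 and reached 30.8 UPM in H4, 47.8 in H6 and 86.6 in H7. In the CIA bloods it was 1447 UPM for S2, 271 for S6 and 2364 for S7. Every CIA blood lay above every healthy blood, and the ratio of the group means was 33.0. Wfdc17, the most abundant of the 8 in blood, stood at 336, 258, 109 and 327 UPM in H3, H4, H6 and H7 and at 5233, 991 and 4701 in S2, S6 and S7. The groups did not overlap, with a ratio of means of 14.1, and S6 was again the lowest CIA mouse.

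Hp and Anxa1 had a narrower spread among the CIA mice. Hp ranged from 22.3 to 75.6 UPM in the 4 healthy bloods and stood at 681, 398 and 571 in S2, S6 and S7, a ratio of means of 11.8. Anxa1 ranged from 21.9 to 76.2 UPM in healthy blood and stood at 630, 378 and 718 in the CIA bloods, a ratio of 12.6. Both genes were thus separated by state in every mouse, including S6.

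Mgst1 was listed at 0 in H3 and ranged up to 22.5 UPM in the other healthy bloods, against 376, 244 and 380 in S2, S6 and S7. Trem3, the least abundant of the 6 genes without overlap, was listed at 0 in H3 and H7 and was 5.33 in H4 and 9.83 in H6, against 168, 95.2 and 147 UPM in the CIA bloods. The ratios of means were 20.5 for Mgst1 and 36.0 for Trem3, the latter over healthy values close to 0.

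Slpi and G0s2 behaved differently. Slpi ranged from 0 to 10.5 UPM in healthy blood and stood at 77.1 in S2 and 135 in S7, but it was listed at 0 in S6. G0s2 had its highest blood value in a healthy mouse, 322 UPM in H3, and stood at 12.9, 0 and 16.6 in H4, H6 and H7 and at 199, 0 and 163 in S2, S6 and S7. For both genes the groups overlapped, and the ratio of means for G0s2 was 1.37. The 322 UPM in H3 rested on 70 units in 14 of 27 barcodes.

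**Figure D1:**
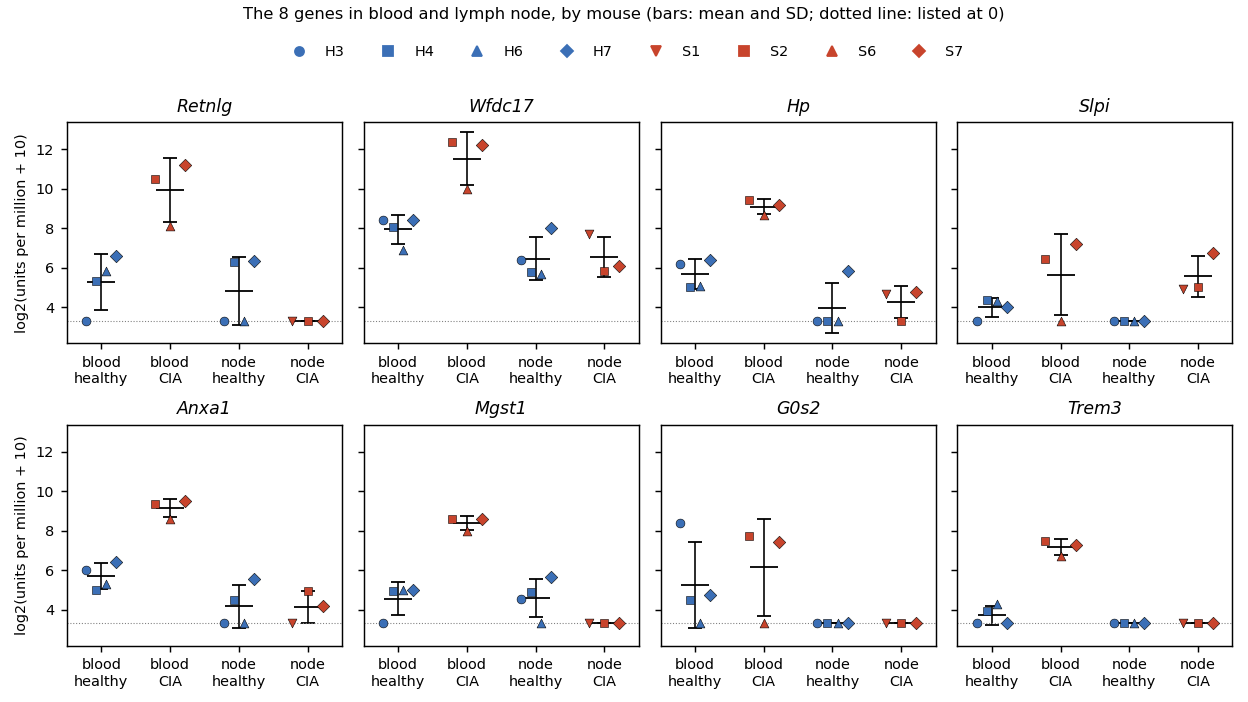
Level of each of the 8 genes in blood and lymph node, as log2(UPM + 10), with 1 symbol per mouse and bars for the mean and SD of the group. The 3 CIA bloods lie above the 4 healthy bloods in all panels but those of Slpi and G0s2, and many lymph node points lie on the line of genes listed at 0, with Slpi of S7 (99.0 UPM) and Retnlg of H4 and H7 (68.3 and 71.1 UPM) above it and Wfdc17 above it in every node.

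For 6 of the 8 genes all 3 CIA bloods were thus above all 4 healthy bloods, and among the 4416 genes tested in blood 219 (4.96%) had that order. Since blood levels chose the 8 genes, nothing is read from this count. On the log2(UPM + 10) scale, which understates changes of low genes, the difference between CIA and healthy blood was 4.67 for Retnlg (SE 0.83), 3.83 for Mgst1 (SE 0.84), 3.56 for Wfdc17 (SE 0.59), 3.46 for Anxa1 (SE 0.68), 3.44 for Trem3 (SE 0.96) and 3.42 for Hp (SE 0.69). It was 1.64 for Slpi (SE 1.01) and 0.92 for G0s2 (SE 1.23), with 4 healthy and 3 CIA mice throughout. The median over all tested genes was -0.10.

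In the same blood samples the markers of other cells moved as well. Neutrophil markers of late maturation, 24 genes that include none of the 8, summed to between 1896 and 5597 UPM in the 4 healthy bloods and to 60300 in S2 and 72825 in S7. In S6 they summed to 5411 UPM, within the healthy range, with 3 of the 24 genes above 0 and with Cxcr2, Csf3r, Mmp9 and Ly6g listed at 0. Markers of monocytes and macrophages summed to between 44.5 and 248 UPM in healthy blood and to 1933, 1821 and 542 in S2, S6 and S7, so that S6 had high monocyte markers with neutrophil markers at the healthy level. T cell markers summed to between 123 and 474 UPM in healthy blood, to 105 in S2, and were listed at 0 in S6 and S7. B cell markers summed to between 979 and 2847 UPM in healthy blood and to 337, 905 and 2237 in S2, S6 and S7. Erythroid markers, mostly globins, ranged from 35788 to 516392 UPM in healthy and from 58511 to 378674 in CIA blood. The part of these cell types in the differences of the 8 genes was not tested, and fewer cells of a type and less RNA per cell cannot be told apart in summed libraries.

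Without S6, the log2 difference between CIA and healthy blood was 5.58 for Retnlg, 4.33 for Wfdc17, 2.81 for Slpi and 2.33 for G0s2. Retnlg, Wfdc17, Hp, Anxa1, Mgst1 and Trem3 were above the healthy range in S6 itself, whereas Slpi and G0s2 were listed at 0 there. Within the libraries of suffix 2CIA, from 2 healthy and 3 CIA mice, the differences were 5.27 for Retnlg, 4.47 for Anxa1, 3.84 for Trem3, 3.65 for Mgst1, 3.35 for Wfdc17, 3.06 for Hp, 2.33 for Slpi and 0.31 for G0s2, and the suffix CIA held no CIA blood.

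Blood and lymph node were then compared within each state. In healthy mice the levels of the 8 genes were low in both organs. Wfdc17 was 257 ± 105 UPM in healthy blood and 102 ± 97.7 in healthy lymph node (SD, n = 4 each), and Retnlg was 41.3 ± 36.1 and 34.9 ± 40.3. All 4 healthy mice had more Wfdc17, Hp and Anxa1 in blood than in their own node, and 2 of 4 had more Retnlg, Mgst1 and Trem3. No member of the group had all healthy bloods above all healthy nodes, an order that 77 of 5015 genes (1.54%) had. The log2 differences between healthy blood and node ranged from -0.03 for Mgst1 to 1.91 for G0s2, with SE 0.62 and 0.94, beside a median of -0.42 over all 4810 tested genes.

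In CIA mice the 2 organs were far apart. Retnlg and Mgst1 were listed at 0 in the lymph nodes of S1, S2 and S7, against blood means of 1361 ± 1049 and 333 ± 77.4 UPM (SD, n = 3). Wfdc17 was 102 ± 86.2 UPM in the nodes and 3641 ± 2311 in blood. Hp was 11.1 ± 9.70 UPM in the nodes and 550 ± 143 in blood, and Anxa1 was 9.45 ± 10.3 and 575 ± 176. Trem3 and G0s2 were listed at 0 in all 7 lymph nodes of either state.

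For 6 of the 8 genes every CIA blood was above every CIA node, an order that 289 of 4462 genes (6.48%) had. Since blood levels chose the genes, nothing is read from this count either. The log2 differences between CIA blood and CIA node were 6.63 for Retnlg (SE 0.98), 5.07 for Mgst1 (SE 0.71), 5.01 for Anxa1 (SE 0.73), 4.96 for Wfdc17 (SE 0.72), 4.83 for Hp (SE 0.77), 3.84 for Trem3 (SE 0.58) and 2.83 for G0s2 (SE 1.08). Slpi was the exception with 0.08 (SE 0.83). It stood at 20.1 to 99.0 UPM in the CIA nodes and was listed at 0 in the blood of S6, and without S6 its difference was 1.24. The median over all tested genes was -0.85. Both S2 and S7, the CIA mice with both organs, had all 8 genes higher in blood than in their own node.

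The lymph node of CIA against healthy mice was not the comparison that chose the 8 genes, but node levels were in view when they were chosen, so their node values too are a description and carry no test. Over all 5081 tested genes limma called 1 (0.0197%) at an adjusted p under 0.05, the interferon-induced gene Ifi27l2a, named here because it was the only call, and 201 genes had an unadjusted p under 0.05. Of the 8 genes only Wfdc17 was abundant enough to enter this fit. Wfdc17 differed by 0.08 on the log2 scale (SE 0.53), from 72.8, 44.7, 42.4 and 247 UPM in H3, H4, H6 and H7 and 201, 46.9 and 57.7 in S1, S2 and S7.

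Slpi was listed at 0 in the lymph nodes of all 4 healthy mice and stood at 20.1 UPM in S1, 22.7 in S2 and 99.0 in S7. The groups did not overlap, with all healthy values listed at 0. How many of all genes had this order in lymph node was not counted, so nothing is read from it. In S7 the whole level came from the library of suffix 2CIA (168 UPM, in 58 of 369 barcodes), while the other node library of S7, of suffix CIA, listed Slpi at 0. Among libraries of suffix 2CIA, the healthy H3 and H4 were at 0 and S1, S2 and S7 at 20.1, 22.7 and 168 UPM. The groups did not overlap there either, and nothing is read from that order. In the CIA nodes, where the 2CIA library of S7 held 559 Slpi units against 60 in S1 and 48 in S2, 49.8% of the Slpi units lay in barcodes led by T cell markers, 24.7% in the 10 barcodes led by monocyte markers and 21.4% in those led by B cell markers.

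Hp and Anxa1 overlapped between the nodes of healthy and of CIA mice. Hp was listed at 0 in 3 of 4 healthy nodes and at 47.4 UPM in H7, against 15.7, 0 and 17.7 in S1, S2 and S7. Anxa1 was listed at 0 in H3 and H6 and stood at 12.5 in H4 and 37.8 in H7, against 0, 20.4 and 7.97 UPM. Retnlg stood at 0, 68.3, 0 and 71.1 UPM in the healthy nodes of H3, H4, H6 and H7 and Mgst1 at 13.5, 19.3, 0 and 39.8, and both were listed at 0 in the 3 CIA nodes. The node of H7 held the highest value of Retnlg, Wfdc17, Hp, Anxa1 and Mgst1 among all 7 nodes, and beside it stood 140470 UPM of erythroid markers, against 95.3 to 21459 in the other healthy nodes, and 3329 UPM of late neutrophil markers, against 83.2 to 781. Their part in the node values was not tested.

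**Figure D2:**
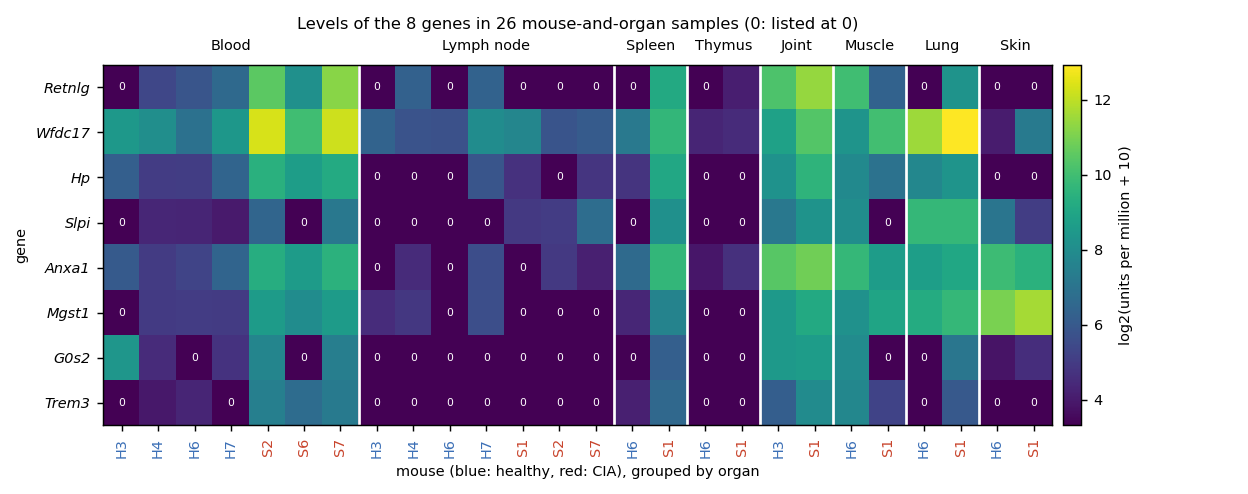
Level of the 8 genes in the 26 mouse-and-organ samples as a colour scale of log2(UPM + 10), with organs side by side and mice named below in blue (healthy) or red (CIA). The CIA bloods, the joints, the healthy muscle and the CIA spleen are bright for most genes, the thymus and lymph nodes are dark, Wfdc17 is brightest in the CIA lung and Mgst1 is brightest in the CIA skin.

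Across the organs the 8 genes did not share one pattern. Retnlg, Trem3 and G0s2 were highest in the joint of S1, with 2709, 236 and 382 UPM, and in the healthy joint of H3 they stood at 1200, 63.6 and 343. The joint of S1 gave a pair of libraries, which differed for the same animal: Retnlg was 2861 UPM in the one of suffix 2CIA and 697 in the one of suffix CIA, below the healthy joint, whereas Hp was 684 and 1630. Trem3 was 243 and 130 UPM and G0s2 404 and 91.3 in the same libraries, so the order of these organs rests on the library of suffix 2CIA, and in the other one Trem3 and G0s2 lay below the healthy muscle. The healthy muscle of H6 held 990 UPM of Retnlg, 209 of Trem3 and 239 of G0s2, more than the muscle of S1 with 70.9, 28.4 and 0. In the spleen Retnlg was listed at 0 in H6 and stood at 568 UPM in S1. In the skin of both mice Retnlg, Hp and Trem3 were listed at 0.

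Hp and Anxa1 were also highest in the joint of S1, at 750 and 1850 UPM, whereas Wfdc17, Slpi and Mgst1 were highest in other organs. Anxa1 was 1918 UPM in the joint library of suffix 2CIA and 954 in that of suffix CIA, below the healthy joint. Hp was 684 UPM in the library of suffix 2CIA, close to 681 in the blood of S2. Wfdc17 reached 2923 UPM in the lung of H6 and 7797 in the lung of S1, the latter above every blood. Slpi was also highest in lung, at 833 UPM in H6 and 825 in S1. Mgst1 reached 2021 and 3133 UPM in the skin of H6 and S1, against at most 380 in any blood. Anxa1 stood at 945 and 693 UPM in skin and at 1375 and 1850 in joint. The thymus held at most 15.3 UPM of any of the 8 genes. In these organs each value is 1 mouse, and no difference between states is claimed.

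Over the 26 samples the 8 genes split into closer and looser pairs on the log2 scale. The highest correlations between members were 0.92 for Retnlg with Trem3, 0.90 for Anxa1 with Mgst1 and 0.89 for Wfdc17 with Hp, and the lowest was 0.41 for Mgst1 with G0s2. The summed late neutrophil markers had correlations of 0.91 with Hp, 0.89 with Retnlg and 0.88 with Trem3, but 0.54 with Slpi and 0.49 with Mgst1. The samples share mice, libraries and organ types, so these are descriptions of n = 26 samples and not tests.

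Single barcodes show beside which markers the units lay. Barcodes with at least 5% of their units in 10 neutrophil markers, none of them among the 8 genes, were taken as a neutrophil class. It is a range of a score and not a cell type, and 70 of the 8282 barcodes lay between 0.8 and 1.2 times the limit. The class held 659 barcodes with 257 distinct profiles. In blood it held 21 of 1719 barcodes of healthy mice and 60 of 332 of CIA mice. The 60 were 40 in S2, 20 in S7 and 0 in S6. In S2 30 barcodes, inside or outside the class, lay near the limit, and 31 of the 40 still passed at 10%. Beside the density gradient, these shares cannot be read as shares of blood cells.

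Over the 3 CIA bloods together the class carried 72.1% of the Retnlg units, 68.8% of Anxa1, 62.2% of Trem3, 53.0% of G0s2, 44.3% of Wfdc17, 41.0% of Hp, 35.2% of Mgst1 and 12% of Slpi. S2 held most of these units, and the mice differed. Retnlg and Anxa1 were alike in the mice that had the class, with 71.9% and 74.9% in S2 and 78.1% and 76.8% in S7. Of Wfdc17 the class carried 37.7% in S2 and 72.9% in S7, of Hp 40.6% and 61.4%, of Mgst1 26.4% and 77.1%, and of Slpi 0% and 32.9%. S6 had no barcode in the class, so all its units lay outside. Barcodes led by monocyte and macrophage markers, 113 in CIA blood, carried 63.6% of Slpi, 54.3% of Mgst1, 41.1% of Hp and 33.9% of Wfdc17, against 8.41% of Retnlg. These shares are also over the 3 mice together, and in S7 most of the Mgst1 units lay in the neutrophil class. In healthy blood the class carried 40.9% of the Retnlg units and 15.2% of those of Wfdc17. Wfdc17 was above 0 in 99.6% of the CIA blood barcodes outside the class and in 71.1% of the healthy ones, and since the values are smoothed over neighbours, a barcode above 0 need not have held the transcript.

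**Figure D3:**
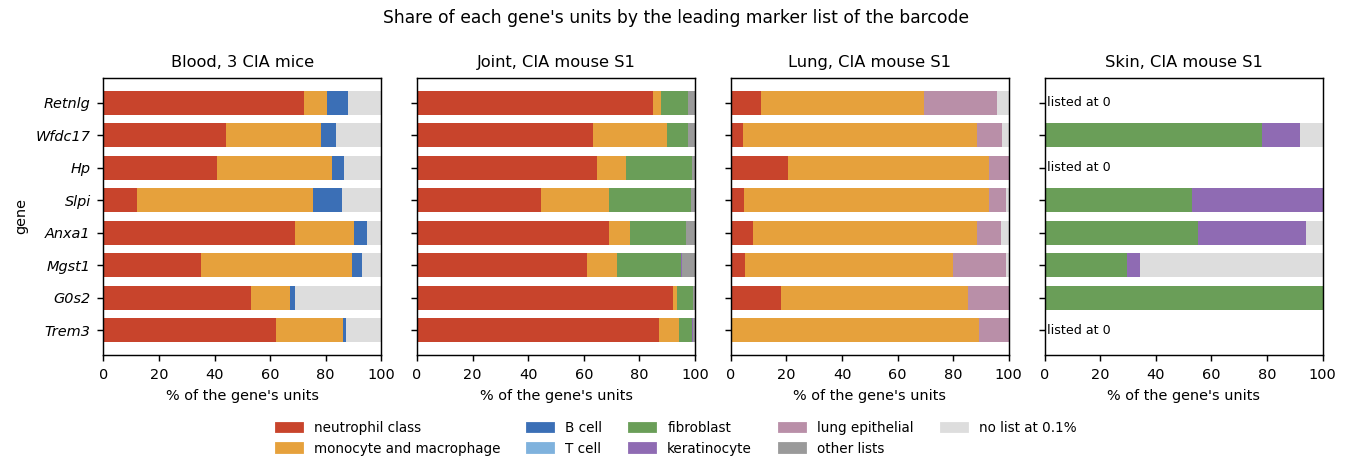
Share of each gene's units, in %, by the marker list that led the barcode, in blood of 3 CIA mice and in joint, lung and skin of S1, with bars starting at 0 and adding up to 100. The neutrophil class is widest for Retnlg in blood (72.1%) and for G0s2 in joint (92.2%), while lung is mostly monocyte and macrophage (84.2% of Wfdc17) and skin mostly fibroblast, keratinocyte or unled barcodes.

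The barcodes that carried a gene differed between organs. In the joint of S1 the class carried 92.2% of G0s2, 87.1% of Trem3 and 84.9% of Retnlg, and 44.5% of Slpi. In the lung of S1 barcodes led by monocyte and macrophage markers carried 84.2% of Wfdc17, 88.1% of Slpi and 80.6% of Anxa1. In the skin of S1 barcodes led by fibroblast markers carried 55.3% of Anxa1 and those led by keratinocyte markers 38.9%. Of Mgst1 in that skin, 65.8% lay in 19 barcodes in which no marker list reached 0.1% of the units.

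**Figure D4:**
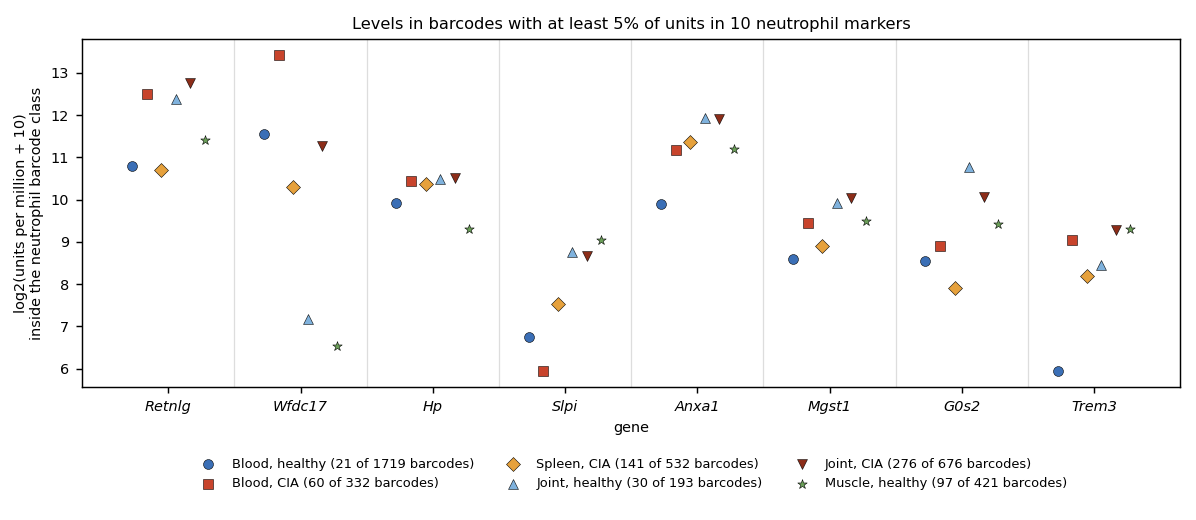
Level of each gene inside the neutrophil barcode class, as log2(UPM + 10), with 1 symbol per organ and state and the number of barcodes in the legend. Wfdc17 spreads furthest, from 82.0 UPM in healthy muscle to 10913 in CIA blood, while Hp lies between 618 and 1453 in these 6 sets.

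Inside the class the levels could be set side by side between the 6 sets of organ and state with more than 20 class barcodes. Wfdc17 stood at 10913 UPM in the class of CIA blood and at 2966 in that of healthy blood, but at 2459 in the CIA joint, 1257 in the CIA spleen, 133 in the healthy joint and 82.0 in the healthy muscle. Hp was more even, with 1380 UPM in CIA blood, 959 in healthy blood, 1453 and 1415 in the CIA and healthy joints, 1319 in the CIA spleen and 618 in the healthy muscle, but in the smaller sets it was 461 in the 12 class barcodes of the CIA muscle, 278 in the 9 of the healthy spleen and 1499 in the 7 of the CIA lung. Retnlg did not split by state, with 5799 UPM in CIA blood, 6892 in the CIA joint and 1660 in the CIA spleen, against 1764 in the 21 barcodes of healthy blood, 5357 in the healthy joint and 2717 in healthy muscle. G0s2 was lower in the class of CIA blood (472) than in that of the healthy joint (1739), CIA joint (1055) or healthy muscle (670), and higher than in that of healthy blood (361) or CIA spleen (228). Slpi was lowest of the 8 in the class of CIA blood, at 51.3 UPM. By mouse, Wfdc17 in the class was 9302 UPM in S2 and 15699 in S7, against 2134 in the 16 class barcodes of H7 and 5304 in the 5 of H4. Trem3 was 468 and 672 UPM, against 0 in H7 and 196 in H4. The classes were unlike in their markers: late neutrophil markers summed to 84158 UPM in that of H7, 208542 in S2 and 285121 in S7, B cell markers to 2218, 343 and 151, and erythroid markers to 155710, 313367 and 48018. The part of these in the differences between the classes was not tested, so the values cannot be read as changes within neutrophils. The class of healthy blood rests on 6 distinct profiles from H4 and H7, so no test was made.

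The stage markers of neutrophils differed between the same organs. Primary granule markers such as Mpo and Elane, 6 genes in all, summed to at most 43.1 UPM in any blood and to 0 in every lymph node, against 492 UPM in the healthy joint, 835 in the CIA joint, 710 in healthy muscle and 566 in the CIA spleen. Secondary granule markers, among them Ltf, Camp and Ngp, summed to 4371 UPM in the blood of S2, 695 in S7 and 0 in S6, and to 12030 and 13591 in the healthy and CIA joints and 20269 in healthy muscle.

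**Figure D5:**
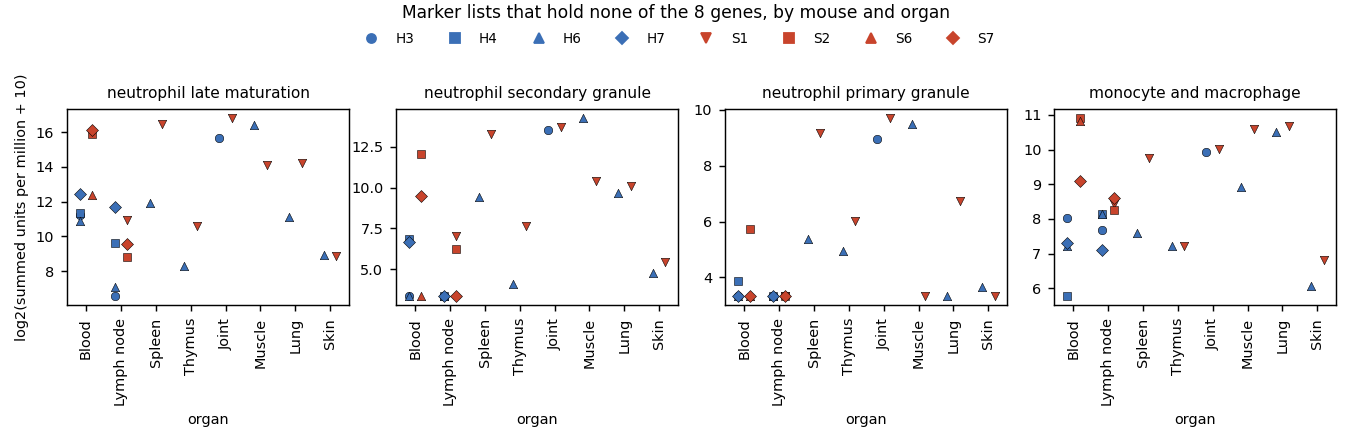
Summed level of 3 neutrophil marker lists and 1 monocyte list, none of which holds any of the 8 genes, as log2(summed UPM + 10) by organ, with 1 symbol per mouse. Late markers are high in blood of S2 and S7, joint, CIA spleen and healthy muscle, whereas primary granule markers stay near 0 in blood and lymph node.

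Other neutrophil genes were tested in the same blood samples. Their lists were chosen with earlier results on these data known, so they are no independent support for the 8 genes. Of the 38 genes of the 3 neutrophil lists, 19 were abundant enough in blood, and 2 were called higher in CIA than in healthy blood by limma, S100a8 (log2 difference 3.84, SE 0.71, adjusted p = 0.0167) and S100a9 (3.00, SE 0.67, adjusted p = 0.0474), subunits of the antimicrobial protein calprotectin. Over all 4416 genes 16 (0.362%) were called higher and 0 lower, with 403 at an unadjusted p under 0.05. The median of the 19 was 1.98, beside -0.10 over all genes, and 18 of 19 were above 0. Genes low in healthy blood, such as Fpr1, were abundant enough only through the CIA bloods, so nothing is read from this median and count. Cxcr2, the chemokine receptor of mature neutrophils, was not called (0.77, SE 1.08, adjusted p = 0.892), nor was Mmp8 (3.31, SE 1.12, adjusted p = 0.480). The 2 calls depended on the mice and on the scaling: 0 of the list genes tested were called without H3, H4 or S2, with TMM scaling, with a pseudocount of 1 or without a mean-variance trend.

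S100a8 stood at 694, 1486, 940 and 3550 UPM in H3, H4, H6 and H7 and at 43214, 3553 and 49101 in S2, S6 and S7. S6 was thus close to the highest healthy mouse for this gene, whereas Hp, Anxa1 and Mgst1 stood at 398, 378 and 244 UPM in the same library against at most 75.6, 76.2 and 22.5 in healthy blood.

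Between blood and node, 14 of the 38 genes were tested. In CIA mice 4 were called higher in blood, Msrb1 (3.82, SE 0.73, adjusted p = 0.00437), S100a9 (5.24, SE 1.15, adjusted p = 0.0114), S100a8 (5.04, SE 1.12, adjusted p = 0.0120) and Mmp8 (3.34, SE 0.91, adjusted p = 0.0335), where limma called 79 of 4810 genes (1.64%) higher and 238 lower. That split depended on the scaling, with 83 higher and 55 lower with median-of-ratios scaling and 89 and 105 when globin genes were left out of the total. The median of the 14 was 2.80 in CIA mice, beside -0.85 over all genes. Secondary granule markers summed to at most 121 UPM in any node, so those among the 14 were abundant enough only through blood. Nothing is therefore read from the medians of the 14 in either state. In healthy mice 0 of the 14 and 0 of all 4810 genes (0%) were called higher by limma, although 735 genes had an unadjusted p under 0.05, and the median of the 14 was 1.42. Without S6, whose blood had neutrophil markers at the healthy level, 11 of the 14 were called in CIA mice, and 1 was called without S2 and 1 without S7. In the same contrast the erythroid genes Hbb-bs (8.09), Hbb-bt (7.96), Hba-a1 (7.84) and Alas2 (3.90) and the monocyte markers F13a1 (4.83) and Ccr2 (3.54) were called higher and the T cell genes Cd3g (-4.10), Cd3d (-4.51), Cd3e (-3.44) and Cd8b1 (-3.50) lower in CIA blood than in CIA node. In the lymph node of CIA against healthy mice 3 of the 38 were tested, limma called 0 and found 0 with an unadjusted p under 0.05, with a median of 1.23 beside 0.05 over all genes.

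The relatives and partners of the 8 genes were read in blood. Among the resistin-like genes Retnlb was listed at 0 in all healthy bloods and stood at 30.7 UPM in S2, 0 in S6 and 313 in S7, and Retnla at 6.47, 0 and 140, both far below Retnlg in the same mice. Retn did not exceed 12.9 UPM in any blood. Reads of near-identical family members could be split between these genes in the authors' counting.

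Among the WAP-domain genes Wfdc21 followed Wfdc17 in part, with 0 to 35.5 UPM in healthy blood and 578, 0 and 226 in S2, S6 and S7. It was called higher in CIA blood than in CIA node (3.48, SE 1.04, limma adjusted p = 0.0489). Wfdc1 and Wfdc2 were listed at 0 in all bloods, and Wfdc18 stood above 0 only in S2, at 12.4 UPM. Of the TREM family Trem1, which amplifies myeloid inflammation, stood at 0 to 23.2 UPM in healthy blood and at 206, 0 and 155 in S2, S6 and S7, and Trem1 was listed at 0 in S6 where Trem3 stood at 95.2, in a library that lacks rare genes. Treml2 was highest in S6, at 159 UPM.

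Tyrobp, the adaptor of Trem3, stood at 84.7 to 179 UPM in healthy blood and at 683, 495 and 298 in S2, S6 and S7, and it was called higher in CIA blood than in CIA node (3.09, SE 0.58, limma adjusted p = 0.00366) but not in CIA than in healthy blood (1.85, SE 0.59, adjusted p = 0.428). The formyl peptide receptors of annexin A1 were low, with Fpr1 at 100 UPM in S2, 0 in S6 and 92.2 in S7 and Fpr2 at 36.1, 0 and 114, against at most 7.55 in any healthy blood. Anxa2 was called higher in CIA blood than node (3.23, SE 0.80, limma adjusted p = 0.0235), and Anxa5 was highest in S6, at 354 UPM. Of the Mgst1 relatives Alox5ap, needed for leukotriene synthesis, was called higher in CIA blood than node (4.69, SE 0.74, limma adjusted p = 0.000893), while Mgst2 stood at 14.4 to 234 UPM in healthy blood and at 17.3, 0 and 0 in the CIA bloods (log2 difference -2.57, SE 1.04, limma adjusted p = 0.538). Elane and Ctsg, the proteases that Slpi inhibits, did not exceed 7.01 UPM in any blood. Pnpla2, the lipase that G0s2 inhibits, stood at 28.0 UPM in S2, at 0 in S6 and S7 and at most at 28.1 in healthy blood. Cd163 and Hpx, a haptoglobin receptor and a haem-binding plasma protein, were listed at 0 in all bloods.

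The genes whose levels were most like the mean of the 8 over the 26 samples, by Pearson correlation on the log2 scale, were Lilr4b (0.93), Ifitm6 (0.89), Mmp8 (0.88), C5ar1 (0.88), Cd14 (0.88), Cd300lf (0.87), Trem1 (0.87), S100a11 (0.87), Ifitm3 (0.86) and S100a6 (0.85). Mmp8 encodes neutrophil collagenase, C5ar1 the receptor of the complement fragment C5a, and Cd14 a lipopolysaccharide co-receptor of monocytes and neutrophils. The values are given as a likeness over n = 26 samples that share mice and libraries, with no test.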

How the data were processed

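Single cells of 8 organs were profiled by Seq-Well, 20000 cells per array. The authors used bcl2fastq, Picard and STAR, per the labels, which list the builds GRCh38 and mm9, whereas the study's methods name GRCm38. They kept cells with at least 10000 reads, 400 transcripts and 200 genes and under 20% mitochondrial transcripts, and smoothed the counts over 12 nearest neighbours. No doublet caller was run here, and the study's methods give an upper limit on transcripts, against doublets, only for its later analysis of a part of the organs. The deposited values are therefore a smoothed signal in whole numbers and not counts, so no count model was used. 21404 of 23013 Entrez rows were given a symbol, and the rows without one held 3.39% of the units.

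Units of a mouse and organ were added and scaled to the sample total. Genes that averaged 25 UPM or more over the fitted samples were tested with limma 3.58.1 (R 4.3.3) on log2(UPM + 10) with a mean-variance trend, two-sided, Benjamini-Hochberg adjusted over all genes tested, at 0.05. The fits were tested on simulated data. Values per barcode are descriptions. Depth was 217494 to 7886790 units per library, and since smoothing shares units, no counting interval was made. The 8 genes and the marker lists were chosen with earlier results of these data known. The named genes are the 8, listed genes called in a comparison or high in the organ described, relatives and partners above 0 in blood, and the 10 most correlated genes. Relatives listed at 0 and Cxcr2, Mmp8 and stage markers are named beside this rule. Of the listed genes, 1 (Wfdc15b) had no row.

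Blood and lymph node came from the same animal in H3, H4, H6, H7, S2 and S7, which pairs those samples, while S6 gave only blood and S1 only node. The deviations of a mouse's blood and node from their group means had correlations over 4810 genes of -0.01 in H3, -0.20 in H4, 0.06 in H6, 0.18 in H7, -0.26 in S2 and -0.04 in S7. H6 and S6, or H7 and S7, share only a number. Whether further libraries of a mouse are technical replicates is not given in the sources used here. Alternatives were TMM and median-of-ratios scaling, a pseudocount of 1, no filter, 1 library suffix, no trend, the mouse as a block, each mouse left out, other class limits of 2% and 10%, and, chosen after seeing the data, scaling without globin genes.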

Additional observations from a re-analysis of the deposited data

Results flagged for a closer look

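In 20 groups of 4 mice the highest or lowest mouse was compared with the others by Dixon's ratio of gap to range. In 5 groups a mouse lay past the 95% critical value, which served only as a limit for flagging. Chance gives about 1 in 20 groups of normally distributed values, a rate that values listed at 0 need not follow. Blood levels chose the genes and node levels were in view, so the flags carry no test and nothing is read from their number. In healthy lymph node H7 stood apart for Wfdc17 (247 UPM, next 72.8), for Hp (47.4 UPM, the others listed at 0) and for the erythroid markers (140470 UPM, next 21459). With the others listed at 0, the ratio for Hp is 1 for any value of H7 above 0. In healthy blood H3 stood apart for G0s2 (322 UPM, next 16.6) and, at the low end, for Mgst1 (0, next 20.7). H3 was the smallest blood library, with 27 barcodes. No cause was tested.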

How the results depend on the processing

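Of 373 differences of the 8 genes under an alternative, 333 moved by at most 1 SE without a change of sign, 27 moved further and 13 changed sign. The sign changes concerned values near 0. Wfdc17 in CIA against healthy lymph node was -0.15, -0.17 and -0.51 without H4, H6 or S1 (range -0.51 to 0.59 with a mouse left out). In healthy blood against node Retnlg was -0.23 without H6 (range -0.23 to 0.93), and Mgst1 was 0.23 with TMM scaling, 0.24 with median-of-ratios scaling, 0.81 in libraries of suffix 2CIA, 0.18 without globin genes, 0.37 without H3 and 0.18 without H7 (range -0.60 to 0.37). In CIA blood against node Slpi was -0.75 with a pseudocount of 1, -0.16 in suffix 2CIA and -0.25 without S1 (range -0.25 to 1.24). In CIA against healthy blood the 6 genes without overlap kept differences of at least 2.89 under all alternatives in which they were tested.

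Counts of calls moved more. In lymph node, 1 gene called became 9 with no filter, 3 (and 2 of the neutrophil lists) in suffix 2CIA, 0 with no trend and 1 to 7 with a mouse left out, 7 without H3. In healthy blood against node 0 became 17 (1 of the neutrophil lists) in suffix 2CIA, 1 without globin genes and 0 to 1 with a mouse left out. In CIA blood against node 317 became 138 with median-of-ratios scaling, 110 with no filter, 52 in suffix 2CIA, 194 without globin genes and 91 to 520 with a mouse left out (91 without S1, 105 without S7, 147 without H7, 178 without H4, 187 without S2, 189 without H6 and 520 without H3), and the neutrophil lists went from 4 to 2 with a pseudocount of 1 or no filter and 1 to 11 with a mouse left out. In CIA against healthy blood 16 became 3 with TMM scaling or a pseudocount of 1, 0 with no trend and 0 to 21 with a mouse left out (0 without S2, 2 without H4, 10 without S6 or S7), and the neutrophil lists went from 2 to 0 with TMM scaling, a pseudocount of 1 or no trend, 1 with median-of-ratios scaling or without globin genes and 0 to 3 with a mouse left out. The cause was not tested. TMM scaling moved the median of all genes in CIA against healthy blood from -0.10 to -0.63. With the mouse as a block (consensus correlation -0.01) 305 genes and 4 list genes were called in CIA and 0 in healthy mice. The block was fitted only for blood against node, where the differences of the 8 genes kept their sign. The neutrophil class held 915 barcodes at 2% and 539 at 10%. Values at or near 0 in libraries that lack rare genes limit Slpi, G0s2 and Trem3, and in lymph node also Retnlg, Hp, Anxa1 and Mgst1.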
